A study of Mus musculus with 16 samples.

Results

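RNA sequencing counts from the livers of 4 aged mice of the antibiotic group PAM I were compared with those from 4 aged mice that had received no antibiotics, 8 of the 16 libraries in the series. PAM I mice were 102 weeks old and labelled ABX, and the controls were 102 weeks old and labelled No_ABX. The 8 libraries were chosen by their labelled age and antibiotic group, and no measured value decided which libraries entered. The comparison itself and the gene lists used below were chosen with earlier results of these data known. By the title of the series, antibiotics were given early in life. Neither the drugs and doses nor the meaning of PAM, nor the strain, sex, litter or cage of the mice, is given with the samples. The other libraries came from 4 mice of the antibiotic group PAM II (102 weeks) and 4 young mice without antibiotics (12 weeks). Each library was made from total RNA of a frozen liver portion, so it holds RNA of every cell in that portion.

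The liver receives blood from the gut through the portal vein. Kupffer cells, its resident macrophages, clear microbes and their products from that blood, and hepatocytes carry out the storage of fat and glucose, the synthesis of heme, bile acids and plasma proteins, and the breakdown of foreign compounds. Plasma cells and B cells are a small population in young liver and gather in many tissues with age. Much of the hepatocyte transcriptome also follows the time of day through the circadian clock.

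Between 44532527 and 48706530 fragments were assigned to genes in the PAM I libraries and between 39856490 and 47042924 in the controls. Hepatocyte markers summed to 57400 to 116400 CPM, counts scaled to a common library size, in PAM I livers and to 74400 to 111600 CPM in controls. The libraries did not divide by group on their main axis of variation: the first principal component took 44.8% of the variance and held PAM I replicates 3 and 4 with control replicates 1 and 4 on 1 side. Skeletal muscle markers, 7 genes of muscle fibres, summed to 34.0, 34.99, 1.85 and 1.49 CPM in PAM I replicates 1 to 4 and to 1.09, 10.6, 0.68 and 1.6 CPM in control replicates 1 to 4. Those of PAM I replicates 1 and 2 and control replicate 2 therefore stood above the rest. Control replicate 4 stood apart from the other controls in immune transcripts, with summed T and NK cell markers of 14.5 CPM against 1.36 to 4.12 CPM. PAM I replicates 3 and 4 lay near it, at 12.4 and 12.6 CPM, and PAM I replicates 1 and 2 were at 2.01 and 4.90 CPM. Pancreatic lipase (Pnlip) and 2 of the 3 kidney markers were at 0 in all 8 libraries.

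**Figure D1:**
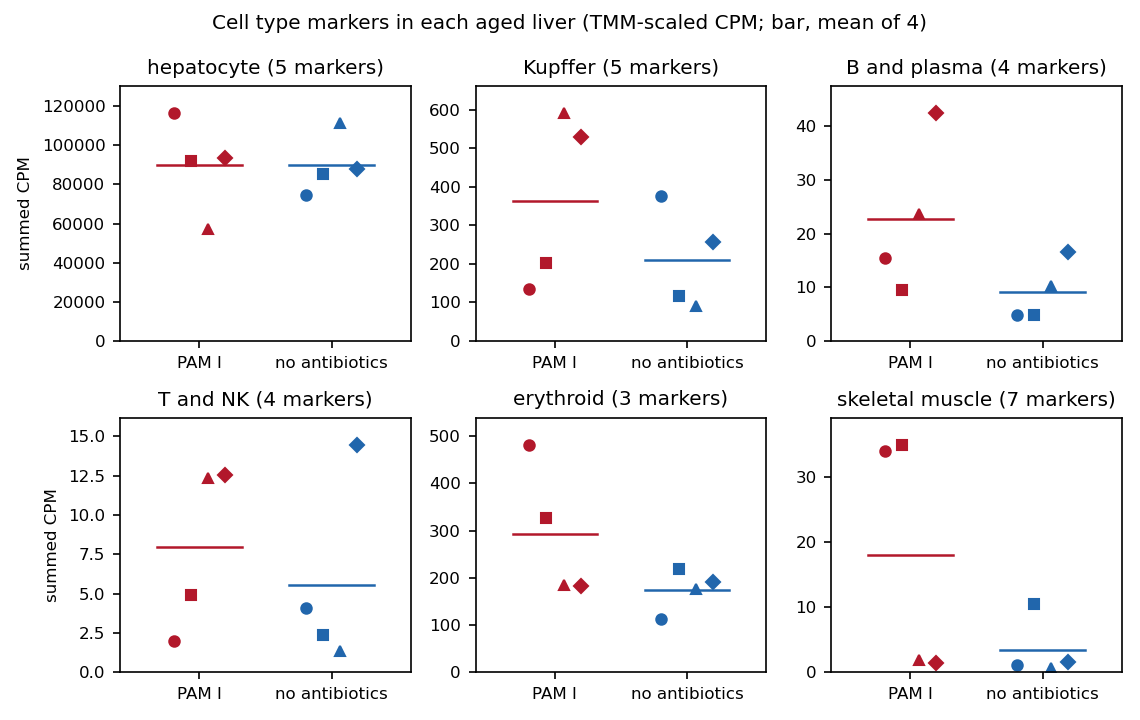
Summed TMM-scaled CPM of the marker genes of 6 cell types (vertical axes, from 0) in the 4 PAM I livers (red, left) and the 4 livers without antibiotics (blue, right). Circle, square, triangle and diamond are replicates 1 to 4 and the bar is the mean. B and plasma cell markers lay at 9.50 to 42.5 CPM in PAM I and 4.76 to 16.5 CPM in controls, and the muscle panel shows PAM I replicates 1 and 2 and control replicate 2 above the others.

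A second property of the libraries was tied to the length of genes. When 11576 genes whose log2 CPM averaged 1 or more were divided into 10 equal classes by summed exon length, the median log2 fold change of PAM I against controls was 0.21 in the shortest class and -0.26 in the longest, against a median of 0.02 over all genes. The difference between the longest and the shortest class was -0.25, -0.30, -0.62 and -0.77 in the 4 PAM I libraries and -0.03, 0.09, 0.27 and -0.36 in the controls. Control replicate 4 thus lay within the PAM I range, and the group difference of -0.47 gave p = 0.0857 in a two-sided exact permutation test over libraries, whose smallest possible p is 0.0286. A second fit with offsets for gene length and GC content was therefore made, and its values, called length-corrected below, are given beside most gene groups. They came from a correction chosen after the data had been seen.

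**Figure D2:**
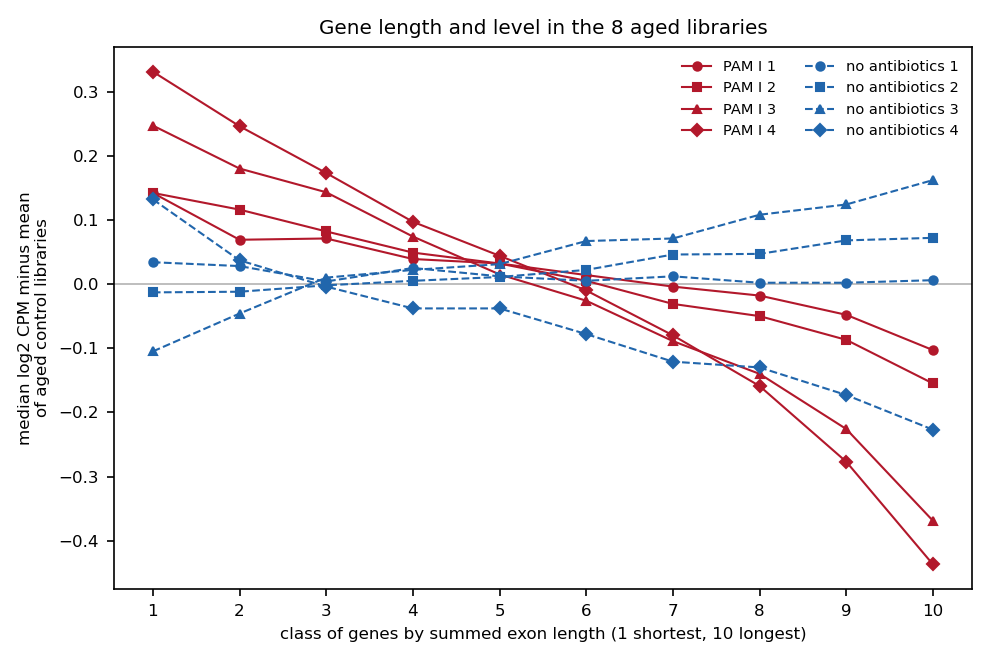
Median log2 CPM of genes in each of 10 equal classes of summed exon length (horizontal axis, 1 the shortest), minus the mean of the 4 aged controls, in each of the 8 aged libraries. Red solid lines are PAM I and blue dashed lines controls, and in the longest class the PAM I libraries lay at -0.10 to -0.44 and the controls at -0.23 to 0.16.

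To determine which transcripts differed in aged livers of the PAM I group, 17046 genes were tested with edgeR's quasi-likelihood test in a model of all 16 libraries. No gene passed a Benjamini-Hochberg adjusted p under 0.05 (0% of genes), and the smallest adjusted p was 0.506. At an unadjusted p under 0.05, 632 genes (3.71%) were higher and 970 (5.69%) were lower in PAM I. The 4 PAM I values lay above all 4 control values for 524 genes (3.07%) and below them for 409 (2.4%). With the length-corrected fit 462 genes (2.71%) were higher and 568 (3.33%) lower at an unadjusted p under 0.05, and again none passed the adjusted threshold. DESeq2 called 14 genes of the 20007 for which it gave an adjusted p (0.07%), 10 higher and 4 lower. At an unadjusted p under 0.05 there were 1602 genes in all (9.4%), higher and lower together. Omission of PAM I replicates 1 to 4 in turn gave 11.7%, 8.92%, 6.31% and 3.55%, which is 616 genes without replicate 4. Omission of control replicates 1 to 4 in turn gave 6.81%, 6.56%, 5.89% and 17.5%. These are 1025 genes without control replicate 3 and 3027 without control replicate 4. The share was 7.76% with the mean log2 CPM of Kupffer cell genes as a covariate and 13.1% with that of skeletal muscle genes. Counts of list genes given below for these fits stand beside these shares. Without the libraries high in muscle transcripts, which leaves 2 PAM I livers and 3 controls, 3 of 18745 genes were called (0.016%): Zc3h11a and the immunoglobulin segments Igkv14-126 and Igkv12-41. Everything that follows therefore describes levels in genes that did not pass the main test, with adjusted p-values between 0.506 and 0.998. The labels do not say that these mice were independent of litter or cage, so the p-values measure the spread between these samples.

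Alas1, the first and rate-limiting enzyme of heme synthesis, was higher in every PAM I liver than in any control. It was measured at 215, 268, 310 and 229 CPM in the PAM I livers, against 138, 118, 127 and 108 CPM in the controls. The means were 255 ± 42.8 CPM in PAM I and 123 ± 12.7 CPM in controls (SD, n = 4 each), a log2 fold change of 1.06 (SE 0.24). It was 1.09 in the length-corrected fit, and between 0.93 and 1.11 when any of the 8 libraries was left out, and Alas1 was among the 14 genes called by DESeq2 (adjusted p = 0.034). The gene (ENSMUSG00000032786) lies on the minus strand at chr9:106233455-106248654 in GRCm38. RefSeq (GRCm38.p6) gives it a pair of nearby start sites, and the windows of 250 bases before to 50 bases after each are printed here because DESeq2 called it and its groups did not overlap.
Alas1, chr9:106247905-106248204, minus strand: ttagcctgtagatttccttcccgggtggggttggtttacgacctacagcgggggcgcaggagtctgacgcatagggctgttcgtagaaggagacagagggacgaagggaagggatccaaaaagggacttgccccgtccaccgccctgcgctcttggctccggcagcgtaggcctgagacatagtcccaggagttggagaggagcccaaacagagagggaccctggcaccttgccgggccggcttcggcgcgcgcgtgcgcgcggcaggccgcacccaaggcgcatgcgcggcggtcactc
Alas1, chr9:106247681-106247980, minus strand: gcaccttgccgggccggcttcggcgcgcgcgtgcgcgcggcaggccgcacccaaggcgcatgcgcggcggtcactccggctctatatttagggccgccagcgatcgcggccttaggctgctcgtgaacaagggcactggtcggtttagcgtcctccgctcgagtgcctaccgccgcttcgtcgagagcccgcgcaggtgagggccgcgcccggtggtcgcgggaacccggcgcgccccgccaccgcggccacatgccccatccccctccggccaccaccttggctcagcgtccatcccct
These windows were 65.3% and 73.3% G and C. They held neither of the 2 motifs searched below, so they have no capitals.

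The other genes of heme and iron handling showed a mixed picture. Of 27 measured, 18 were higher and 9 lower, with a median log2 fold change of 0.14. At an unadjusted p under 0.05, 4 were higher and 1 lower, against 3.71% and 5.69% of all genes. Ftl1, the light chain of the iron store ferritin, had 3271, 3391, 2845 and 4160 CPM in PAM I against 1874, 2798, 2524 and 2322 CPM in controls, with no overlap and a log2 fold change of 0.52 (SE 0.14). Its processed copy Ftl1-ps1 also had a higher level, with a log2 fold change of 0.96, so reads may be shared between the 2 loci. Blvrb, a biliverdin reductase of heme breakdown, had 161, 162, 201 and 207 CPM in PAM I and 124, 134, 129 and 153 CPM in controls. All 4 PAM I livers were again above the controls (log2 fold change 0.44, SE 0.13). In the length-corrected fit Ftl1 was at 0.29 (unadjusted p = 0.084) and Blvrb at 0.30 (unadjusted p = 0.01), and 2 genes of the list were higher at an unadjusted p under 0.05. Without control replicate 4, 6 genes of the list were lower, and 17.5% of all genes passed in either direction. The heme carriers of red cells were measured alongside: erythroid markers summed to 481, 326, 185 and 182 CPM in PAM I and to 114, 218, 176 and 191 CPM in controls, and the part of red cell RNA in the levels above was not tested.

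Genes of antioxidant defence, many of them targets of the transcription factor NRF2, were mostly higher in PAM I. Of 23 measured, 18 were higher, the median log2 fold change was 0.26, and 7 were higher and none lower at an unadjusted p under 0.05, against 3.71% and 5.69% of all genes. Gpx4, which reduces lipid peroxides, had 303, 380, 277 and 377 CPM in PAM I and 174, 253, 270 and 255 CPM in controls (log2 fold change 0.49, SE 0.15). Prdx1, a peroxiredoxin that removes hydrogen peroxide, had 616, 661, 678 and 728 CPM in PAM I and 517, 579, 549 and 481 CPM in controls (log2 fold change 0.34, SE 0.11). For both genes the lowest PAM I liver lay above the highest control, closely so for Gpx4. With length correction Gpx4 was at 0.29 (unadjusted p = 0.065) and Prdx1 at 0.36 (unadjusted p = 0.0024), and Prdx1 was the 1 member of the list at an unadjusted p under 0.05, with a list median of 0.19. The count of 7 lay between 4, without PAM I replicate 4, control replicate 1 or control replicate 3, and 8, without control replicate 2.

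The promoter of Prdx1 is shown because this gene was at an unadjusted p under 0.05 in both fits and holds the core of the antioxidant response element that NRF2 binds, TGACNNNGC, on the strand opposite to transcription. The match is in capitals and begins 133 bases before the start.
Prdx1, chr4:116685349-116685648, plus strand: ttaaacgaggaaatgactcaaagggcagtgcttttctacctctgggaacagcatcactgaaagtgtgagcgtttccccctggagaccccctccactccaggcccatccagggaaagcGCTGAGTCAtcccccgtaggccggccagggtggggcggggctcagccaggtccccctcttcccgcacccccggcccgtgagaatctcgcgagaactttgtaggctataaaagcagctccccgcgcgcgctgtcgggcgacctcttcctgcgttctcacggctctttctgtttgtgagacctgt
This core, searched on both strands, was present in windows of 8 of the 18 antioxidant genes with a RefSeq promoter (44.4%) and of 1927 of the 11607 tested genes with one (16.6%). In the other lists searched it was present for 31.6% of circadian clock, 22.2% of heme and iron and 11.8% of DNA methylation and chromatin genes. A match describes these letters and is not a measured binding site. The antioxidant list was written to hold known NRF2 targets, so its share of matches does not bear on PAM I.

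Glutathione transferases of the Gstm family, which conjugate foreign and oxidized compounds, were the members of the xenobiotic list with the smallest p. Gstm2 had 140, 164, 151 and 156 CPM in PAM I and 56.3, 125, 107 and 106 CPM in controls (log2 fold change 0.63, SE 0.22). Gstm3 was at 0.90 (SE 0.37) and Gstm1 at 0.49 (SE 0.22), both with overlap between the groups. Without control replicate 1 the values were 0.42 for Gstm2, 0.57 for Gstm3 and 0.30 for Gstm1. The first of these genes separated the groups and control replicate 1 was the lowest liver for all of them; the Gstm genes are near copies, so the division of reads between them is uncertain. Among all 54 genes of xenobiotic metabolism the median log2 fold change was 0.05, with 3 higher and none lower at an unadjusted p under 0.05, near the 3.71% of all genes higher, and 2 with length correction. The count of higher genes was 1 without PAM I replicate 2 or control replicate 1, 8 without control replicate 2 and 11 with the Kupffer cell covariate. Cyp3a11, the main drug oxidizing cytochrome of mouse liver, was at -0.03 (SE 0.20), and Cyp2b10, a target of the drug sensor CAR, at 0.70 (SE 0.82), with 0.394 to 6.73 CPM in PAM I and 0.735 to 5.19 CPM in controls.

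Transcripts of B cells and plasma cells were higher in PAM I, with wide differences between mice. Of 30 measured genes of these cells 28 were higher, the median log2 fold change was 0.57, and 7 were higher and none lower at an unadjusted p under 0.05, against 3.71% of all genes higher. That count was 2 with the mean log2 CPM of Kupffer cell genes as a covariate and 2 with the clock covariate described below. Ighm (ENSMUSG00000076617, chr12:113418558-113422730), the constant region of the IgM heavy chain, had 186, 128, 228 and 514 CPM in PAM I and 58.2, 75.1, 88.2 and 113 CPM in controls. The groups did not overlap, and the log2 fold change was 1.66 (SE 0.41). Igkc, the kappa light chain constant region, had 91.1, 58.5, 222 and 476 CPM in PAM I and 38.5, 30.7, 62.0 and 103 CPM in controls (log2 fold change 1.86, SE 0.65). Jchain, which joins IgM and IgA into polymers, had 7.45, 4.51, 16.6 and 28.0 CPM in PAM I and 2.56, 2.04, 7.06 and 6.06 CPM in controls (log2 fold change 1.67, SE 0.58). For both, PAM I replicates 3 and 4 were above every control while replicates 1 and 2 lay within or near the control range.

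Lambda light chain and IgG transcripts, named after their values were seen, followed with Iglc1 at a log2 fold change of 2.24 (SE 0.83) and Ighg2c at 2.33 (SE 0.92). Without PAM I replicate 4 these were 0.98 and 0.83, and Igkc was at 1.07 and Jchain at 1.09. The IgA heavy chain Igha was at 0.17 (SE 0.80), with 2.86 to 14.9 CPM in PAM I and 2.40 to 11.8 CPM in controls. Immunoglobulin gene segments share sequence, so counts may be split among them. The B cell surface gene Ms4a1 was at 0.98 (SE 0.42). With length correction the count was 7 and the median 0.54. Without PAM I replicate 4 the list had a median of 0.20 and 1 gene at an unadjusted p under 0.05. Without control replicate 4 it had a median of 1.34 and 18 genes. In these fits 3.55% and 17.5% of all genes passed in either direction. Ighm itself had a log2 fold change of 1.10 without PAM I replicate 4, and between 1.10 and 1.87 over all such omissions. In bulk tissue, more cells of a type and more RNA per cell cannot be told apart.

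Kupffer cell transcripts varied widely between mice of both groups. Of 21 measured, 19 were higher in PAM I, with a median log2 fold change of 0.61 (0.44 with length correction) and none at an unadjusted p under 0.05. Without PAM I replicate 1, control replicate 1 or control replicate 4 there were 4 higher, with 1 lower in the last case. With the mean log2 CPM of skeletal muscle genes as a covariate 10 were higher. Without control replicate 2 or 3 there was 1 lower and none higher. Clec4f, a lectin made only by Kupffer cells in the mouse, had 58.0, 99, 330 and 288 CPM in PAM I and 181, 46.2, 32.8 and 121 CPM in controls. PAM I replicates 3 and 4, the livers with most immunoglobulin RNA, were also those with most Clec4f. The scavenger receptor Marco was in the opposite direction, at -2.12 (SE 1.05), with 2.54, 0.599, 4.69 and 2.24 CPM in PAM I and 37.7, 4.71, 0.767 and 0.646 CPM in controls. That value rested on control replicate 1. Without PAM I replicate 3 the Kupffer cell median was 0.10, with 2 genes lower and none higher at an unadjusted p under 0.05.

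T cell and NK cell genes had a median log2 fold change of 0.28 over 36 measured, with none at an unadjusted p under 0.05. That changed with control replicate 4, without which the median was 1.27 and 19 genes were higher at an unadjusted p under 0.05. In that fit 17.5% of all genes passed this level in either direction, against 9.4% with all libraries. The chemokine Ccl5 had 3.0, 6.78, 15.5 and 15.8 CPM in PAM I and 4.98, 2.31, 1.53 and 31.0 CPM in controls, and the granule protease Gzma was at 0.50 (SE 0.71). Interferon-gamma response genes (24 measured) had a median of -0.17, and 0.28 without that same control. Genes of the type I interferon response (34 measured) had a median of 0.16. Without control replicate 4 they had a median of 0.45 with 15 higher, against the same 17.5% of all genes. With all libraries 2 were higher and none lower at an unadjusted p under 0.05, against 3.71% and 5.69% of all genes. The 2 genes were Bst2, which tethers virus particles, at 0.45 (SE 0.14) and Ifi27 at 0.44 (SE 0.17). Neither was at an unadjusted p under 0.05 with length correction, where the type I list had a median of 0.08, the interferon-gamma list one of -0.14 and T and NK cells one of 0.25.

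Genes that sense microbes showed small differences in both directions. Of 32 measured, 18 were higher and 14 lower, with a median log2 fold change of 0.05 in both fits. Tlr3, a receptor for double-stranded RNA, was at -0.45 (SE 0.16) and its adaptor Ticam1 at 0.23 (SE 0.08). Tlr4, the receptor for bacterial lipopolysaccharide, was at 0.14 (SE 0.34) and its co-receptor Cd14 at 0.64 (SE 0.43). Acute phase genes (31 measured, median -0.17, and -0.26 with length correction) included none at an unadjusted p under 0.05. Without control replicate 4, 4 of them were lower, and 17.5% of all genes passed in either direction. Saa1, a plasma protein of inflammation, had 50.7, 124, 125 and 101 CPM in PAM I and 533, 60.0, 52.8 and 129 CPM in controls, and Lcn2, which withholds iron from bacteria, had 18.1, 62.0, 53.0 and 34.7 CPM against 200, 25.4, 21 and 50 CPM in controls. Control replicate 1 was the 1 high liver for both, as for Marco.

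Genes of the lipid droplet, the organelle in which hepatocytes store triglyceride, tended to higher levels in PAM I. Of 23 measured, 20 were higher, with a median log2 fold change of 0.21 in both the main and the length-corrected fit. At an unadjusted p under 0.05, 4 were higher (3 with length correction) and none lower. Of all genes 3.71% were higher and 5.69% lower. G0s2 (ENSMUSG00000009633, chr1:193272161-193273217), an inhibitor of the triglyceride lipase ATGL, had 167, 195, 184 and 104 CPM in PAM I and 62.8, 93.8, 91.8 and 107 CPM in controls. Here 3 of the 4 PAM I livers were above every control, and PAM I replicate 4 lay below the highest. The log2 fold change was 0.87 (SE 0.19), with 0.65 after length correction, and DESeq2 called it (adjusted p = 0.0372). Plin2, the droplet coat protein, had 785, 876, 640 and 970 CPM in PAM I and 473, 611, 687 and 500 CPM in controls (log2 fold change 0.53, SE 0.18). Fitm1, which helps droplets form, had 123, 133, 134 and 147 CPM in PAM I and 52.6, 114, 94.3 and 98.5 CPM in controls (log2 fold change 0.58, SE 0.21). The groups overlapped for Plin2 and did not for Fitm1. Omission of control replicate 1 left 2 such genes of the list, and omission of control replicate 3 gave 6. Cidea, a droplet fusion protein, had 70.8, 62.2, 56.6 and 163 CPM in PAM I and 5.04, 80.8, 74.1 and 57.1 CPM in controls, and Cd36, a fatty acid transporter, was at 0.00 (SE 0.35).

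Genes of fatty acid oxidation were also mostly higher, and those of fatty acid synthesis had a smaller median. Among 37 genes of oxidation and PPAR-alpha targets 29 were higher and 8 lower, with a median log2 fold change of 0.20. At an unadjusted p under 0.05, 2 were higher and none lower, against 3.71% and 5.69% of all genes. These were Ech1 at 0.28 (SE 0.10) and Acaa1b, a peroxisomal thiolase, at 0.53 (SE 0.22). The length-corrected median was 0.10, with 2 higher and 1 lower, against 2.71% and 3.33% of all genes. The fasting hormone Fgf21 had 16.1, 31.5, 5.56 and 11.4 CPM in PAM I and 3.07, 4.55, 12.8 and 13 CPM in controls. Fatty acid synthesis genes had a median of 0.10 over 21 and cholesterol genes one of -0.08 over 27 (0.08 and -0.11 with length correction). Bile acid genes had a median of 0.01 over 30, with Cyp7a1, the rate-limiting enzyme of their synthesis, at 0.06 (SE 0.43).

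The lowest p-values among genes lower in PAM I included regulators of DNA methylation and chromatin. Of 21 measured, 16 were lower, with a median log2 fold change of -0.26. At an unadjusted p under 0.05, 7 were lower and none higher, against 5.69% and 3.71% of all genes. Every PAM I liver lay below every control for 6, against 2.4% of all genes. Tet3 (ENSMUSG00000034832, chr6:83362373-83459084), an oxidase that starts the removal of DNA methylation, had 18.1, 17.0, 16.8 and 10.2 CPM in PAM I and 29.6, 28.5, 26.0 and 27.2 CPM in controls. The means were 15.5 ± 3.62 CPM in PAM I and 27.8 ± 1.55 CPM in controls (SD, n = 4 each), with a log2 fold change of -0.84 (SE 0.16). Kmt2d, a histone H3 lysine methyltransferase of enhancers, had 81.8, 79.5, 79.4 and 51.7 CPM in PAM I and 116, 126, 97.6 and 125 CPM in controls (log2 fold change -0.67, SE 0.20). Kmt2a, of the same enzyme family, was at -0.64 (SE 0.20), and the DNA methyltransferase Dnmt3b, named after its value was seen, at -0.65 (SE 0.22). Neither of them overlapped between groups, and PAM I replicate 4 was the lowest of the 8 livers for all 4 genes. These are long genes, with a median exon length of 8780 bases in the list against 3737 over all genes tested. After length correction Tet3 was at -0.62 (unadjusted p = 0.000155), Kmt2d at -0.42 and Kmt2a at -0.40, 6 genes of the list were lower at an unadjusted p under 0.05, and the median of the list was -0.01. The count was 4 without PAM I replicate 4, and DESeq2 called Tet3 (adjusted p = 0.0144).

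The 12 genes with the smallest p among those lower in every PAM I liver, Tet3 included, had summed exons of 5133 to 20476 bases. Kdm7a, a histone demethylase, was at -0.56 (SE 0.14), the corepressor subunit Rcor3 at -0.63 (SE 0.16) and Pias1, a SUMO ligase, at -0.32 (SE 0.08). Pcnt, a scaffold of the centrosome, was at -0.41 (SE 0.09), Dop1a at -0.65 (SE 0.14), Pkd2, a calcium channel of the primary cilium, at -0.53 (SE 0.13), and Cd2ap, an adaptor of the actin cytoskeleton, at -0.48 (SE 0.12). Apbb2 (-0.47, SE 0.11), Lrch1 (-0.48, SE 0.12) and the deubiquitinase Yod1 (-0.49, SE 0.13) completed the group with Sik1 and Tet3. Length correction brought Cd2ap to -0.05 and Dop1a to -0.24, whereas Sik1 stayed at -0.96.

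**Figure D3:**
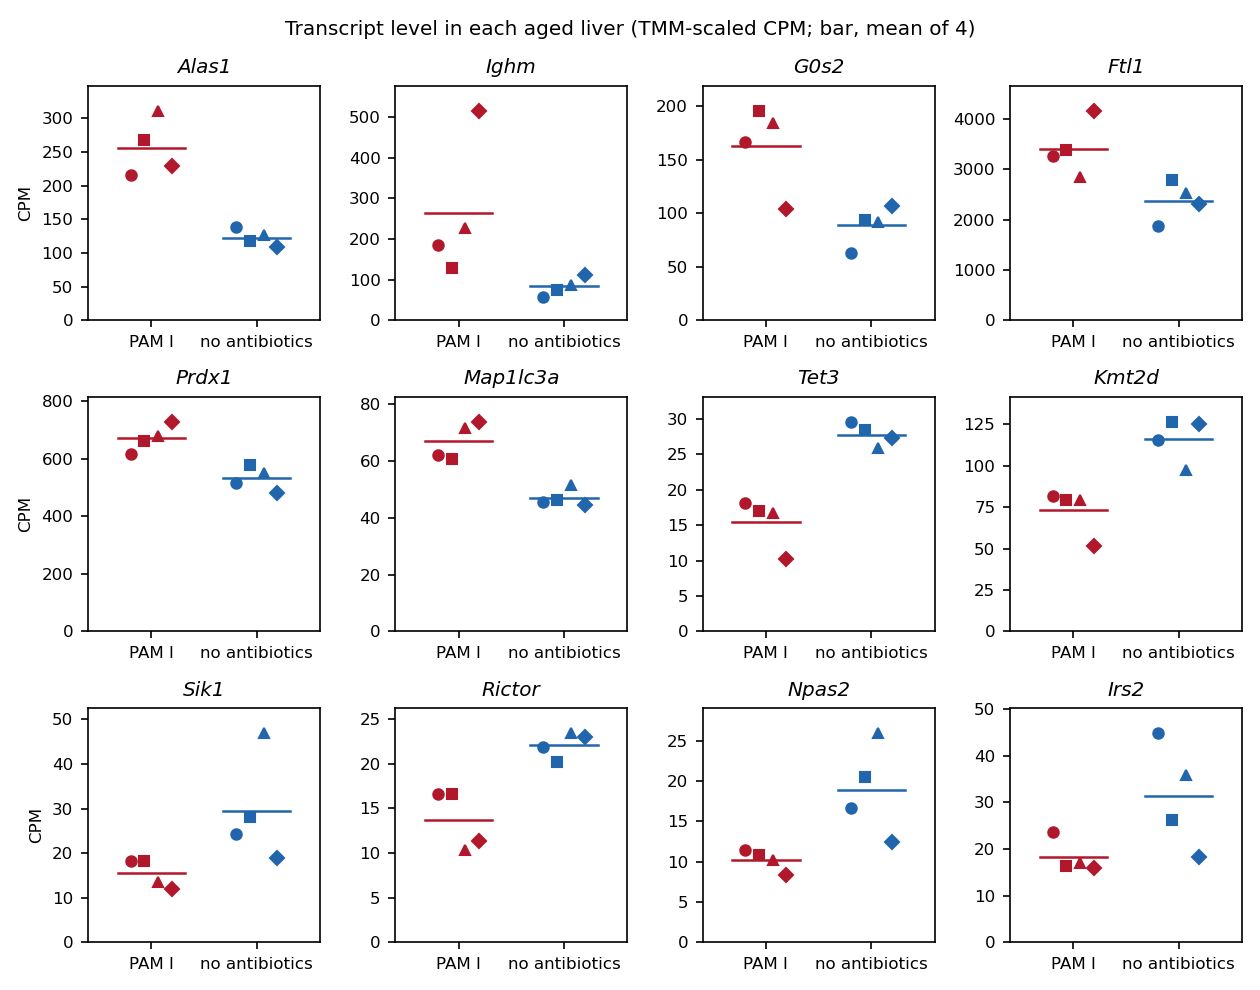
TMM-scaled CPM of 12 genes (vertical axes, from 0) in the 4 PAM I livers (red, left) and the 4 livers without antibiotics (blue, right). Circle, square, triangle and diamond are replicates 1 to 4 and the bar is the mean; Alas1, Ighm, Ftl1, Prdx1 and Map1lc3a lay above, and Tet3, Kmt2d, Sik1, Rictor and Npas2 below, all 4 control values in every PAM I liver, while G0s2 and Irs2 overlapped.

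Several genes by which the liver responds to insulin and to fasting were lower in PAM I. Sik1, a kinase induced by cAMP that restrains glucose output, had 18.3, 18.2, 13.6 and 12.0 CPM in PAM I and 24.3, 28.1, 46.9 and 19.0 CPM in controls (log2 fold change -0.93, SE 0.24). Irs2, the insulin receptor substrate of hepatocytes that fasting induces, had 23.6, 16.3, 17.0 and 16.0 CPM in PAM I and 44.8, 26.2, 35.9 and 18.4 CPM in controls (log2 fold change -0.78, SE 0.27). Insr, the insulin receptor, was at -0.49 (SE 0.18) and Ppp1r3c, which directs a phosphatase to glycogen, at -0.78 (SE 0.35). Groups overlapped for Irs2, Insr and Ppp1r3c, and in each of them control replicate 4 lay within the PAM I range. Of 31 genes of glucose output and insulin signalling 18 were lower, with a median of -0.09. At an unadjusted p under 0.05, 4 were lower (2 with length correction, Irs2 at -0.77 and Ppp1r3c at -0.81) and none higher. Of all genes 5.69% were lower and 3.71% higher. The count of 4 fell to 1 without PAM I replicate 3, PAM I replicate 4 or control replicate 3. It was 7 without control replicate 4, where 17.5% of all genes passed in either direction. Pck1, the key enzyme of glucose synthesis, was at 0.07 (SE 0.34).

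In the mTOR pathway, which couples nutrients and insulin to growth, the median over 24 genes was -0.06. Rictor, the defining subunit of the mTORC2 complex, had 16.6, 16.6, 10.3 and 11.4 CPM in PAM I and 21.9, 20.2, 23.4 and 22.9 CPM in controls, with no overlap (log2 fold change -0.69, SE 0.19; -0.34 with length correction). Eif4ebp1, a repressor of translation that mTORC1 inactivates, was at 0.31 (SE 0.14) and the S6 kinase Rps6kb1 at -0.27 (SE 0.12). Rps6kb1 had a length-corrected value of -0.02. Genes of growth hormone and androgen signalling (19 measured) had a median of -0.23, with 5 lower and none higher at an unadjusted p under 0.05, against 5.69% of all genes lower. Their median exon length was 7684 bases. Esr1, the estrogen receptor, was at -0.77 (SE 0.29), Stat5b, the transcription factor activated by growth hormone, at -0.34 (SE 0.14) and its kinase Jak2 at -0.34 (SE 0.14). That count was 0 without control replicate 1, and with length correction it was 3 and the median -0.05.

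Most genes of the circadian clock had lower levels in PAM I. Of 23 clock genes 17 were lower, with a median of -0.21 (-0.10 with length correction), and 4 were lower and none higher at an unadjusted p under 0.05, against 5.69% of all genes lower. Npas2, which pairs with ARNTL to activate clock targets, had 11.4, 10.8, 10.2 and 8.39 CPM in PAM I and 16.7, 20.6, 25.9 and 12.4 CPM in controls (log2 fold change -0.89, SE 0.26). Cry1, a repressor of that pair, had 7.78, 10.3, 7.98 and 5.98 CPM in PAM I and 14, 17.2, 21.3 and 7.66 CPM in controls (log2 fold change -0.91, SE 0.33). Arntl itself had 20.2, 19.8, 20.1 and 13.1 CPM in PAM I and 29.3, 29.9, 34.6 and 15.3 CPM in controls (log2 fold change -0.58, SE 0.27). In all 3 genes control replicate 4 was the lowest control and PAM I replicate 4 the lowest PAM I liver. Dbp, a clock output gene that peaks in opposite phase to Arntl, had 12.3, 11.5, 6.12 and 20.0 CPM in PAM I and 1.94, 2.79, 4.67 and 17.2 CPM in controls, with a log2 fold change of 0.91 (SE 0.90). The time of day at which the livers were taken is not given. With the difference between Arntl and Dbp as a covariate, 2 clock genes were lower at an unadjusted p under 0.05 and no growth hormone or insulin gene was. In that fit 1036 of all genes passed this level in either direction. The covariate is made of clock genes that were themselves at -0.58 and 0.91 between the groups. It therefore cannot tell the time of day from the group, and the part of the time of day was not tested. Omission of control replicate 3 left 1 such clock gene, and omission of control replicate 4 gave 7. In these fits 5.89% and 17.5% of all genes passed in either direction.

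Cry1 is shown because its window holds an E-box, CACGTG, the letters to which the clock pair binds and which read the same on both strands. The match is in capitals and begins 60 bases before the start.
Cry1, chr10:85185005-85185304, minus strand: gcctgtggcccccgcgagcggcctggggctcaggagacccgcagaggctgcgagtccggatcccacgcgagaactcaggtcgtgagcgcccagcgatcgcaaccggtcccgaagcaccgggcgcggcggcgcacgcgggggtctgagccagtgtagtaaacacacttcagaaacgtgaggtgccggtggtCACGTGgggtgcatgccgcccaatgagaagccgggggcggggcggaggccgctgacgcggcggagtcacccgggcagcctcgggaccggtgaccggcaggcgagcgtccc
An E-box stood in the windows of 5 of 19 clock genes with a RefSeq promoter (26.3%) and of 1295 of 11607 tested genes with one (11.2%). It stood in those of 22.2% of heme and iron, 17.6% of DNA methylation and chromatin and 0.0% of antioxidant genes. The clock list was written from known clock genes, so its share does not bear on PAM I either. This window also holds 2 antioxidant response element cores, which do not overlap the E-box.

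Genes of protein turnover were among those with the smallest p-values on the higher side. Of 31 proteasome genes 28 were higher, with a median log2 fold change of 0.23. At an unadjusted p under 0.05, 15 were higher and none lower, against 3.71% and 5.69% of all genes. Every PAM I liver lay above every control for 7, against 3.07% of all genes. Psmb5, the subunit with chymotrypsin-like activity, had 71.0, 83.9, 84.1 and 95.5 CPM in PAM I and 61.1, 69.3, 63.5 and 68.0 CPM in controls (log2 fold change 0.35, SE 0.10). Psmb1 was at 0.28 (SE 0.08) and Psma2 at 0.26 (SE 0.09). All 3 were higher in every PAM I liver, by less than the group differences of Alas1 or Ighm. Proteasome genes had a length-corrected median of 0.11 with 5 at an unadjusted p under 0.05, Psmb1 at 0.35 and Psma2 at 0.36 among them and Psmb5 not (0.10). The count was 3 without PAM I replicate 4, where 3.55% of all genes passed in either direction.

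In autophagy, Map1lc3a, a ubiquitin-like protein of the autophagosome membrane, had 62.0, 60.7, 71.8 and 73.7 CPM in PAM I and 45.7, 46.1, 51.7 and 44.7 CPM in controls (log2 fold change 0.51, SE 0.11). It had the smallest p of the named genes higher in every PAM I liver, and was at 0.26 with length correction. Gabarap, of the same family, was at 0.30 (SE 0.11), while the median of 27 autophagy genes was 0.08. Heat shock genes (22 measured, median 0.08) included 5 higher and none lower at an unadjusted p under 0.05, against 3.71% of all genes higher. That count was 1 without PAM I replicate 3 or 4 and 2 with length correction. Among its members were the mitochondrial co-chaperonin Hspe1 at 0.33 (SE 0.10) and Dnajb1 at 0.36 (SE 0.14). The lysosomal protease Ctsd was at 0.39 (SE 0.13).

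Nuclear-encoded subunits of the respiratory chain were higher by a small and even amount. Of 46 measured, 45 were higher, with a median log2 fold change of 0.24, 16 higher and none lower at an unadjusted p under 0.05 (3.71% of all genes were higher), and 17 without overlap (3.07% of all genes). Ndufa4 had 225, 248, 240 and 270 CPM in PAM I and 191, 213, 188 and 214 CPM in controls (log2 fold change 0.28, SE 0.10). Cox7a2 was at 0.28 (SE 0.10) and Atp5d at 0.30 (SE 0.11). Their median exon length was 2014.5 bases, and with length correction the median of the list was 0.12 and 5 genes were at an unadjusted p under 0.05. The count was 2 without PAM I replicate 4 and 3 without control replicate 3. In these fits 3.55% and 5.89% of all genes passed in either direction. All 72 cytosolic ribosomal protein genes were higher, with a median of 0.18 and none at an unadjusted p under 0.05, and their length-corrected median was 0.05.

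The remaining genes with the smallest p among those higher in every PAM I liver serve basic functions of most cells. They were the ubiquitin-conjugating enzyme Cdc34 (0.46, SE 0.10), the mitochondrial ribosomal proteins Mrpl34 (0.35, SE 0.08) and Mrpl21 (0.30, SE 0.08), the mitochondrial import chaperone Timm10 (0.43, SE 0.11), Nudt1, which removes oxidized nucleotides (0.43, SE 0.12), the splicing factor Sf3b5 (0.38, SE 0.10) and the transport protein Bet1l (0.32, SE 0.09). Length correction left Mrpl34 at 0.07 and Sf3b5 at 0.41.

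**Figure D4:**
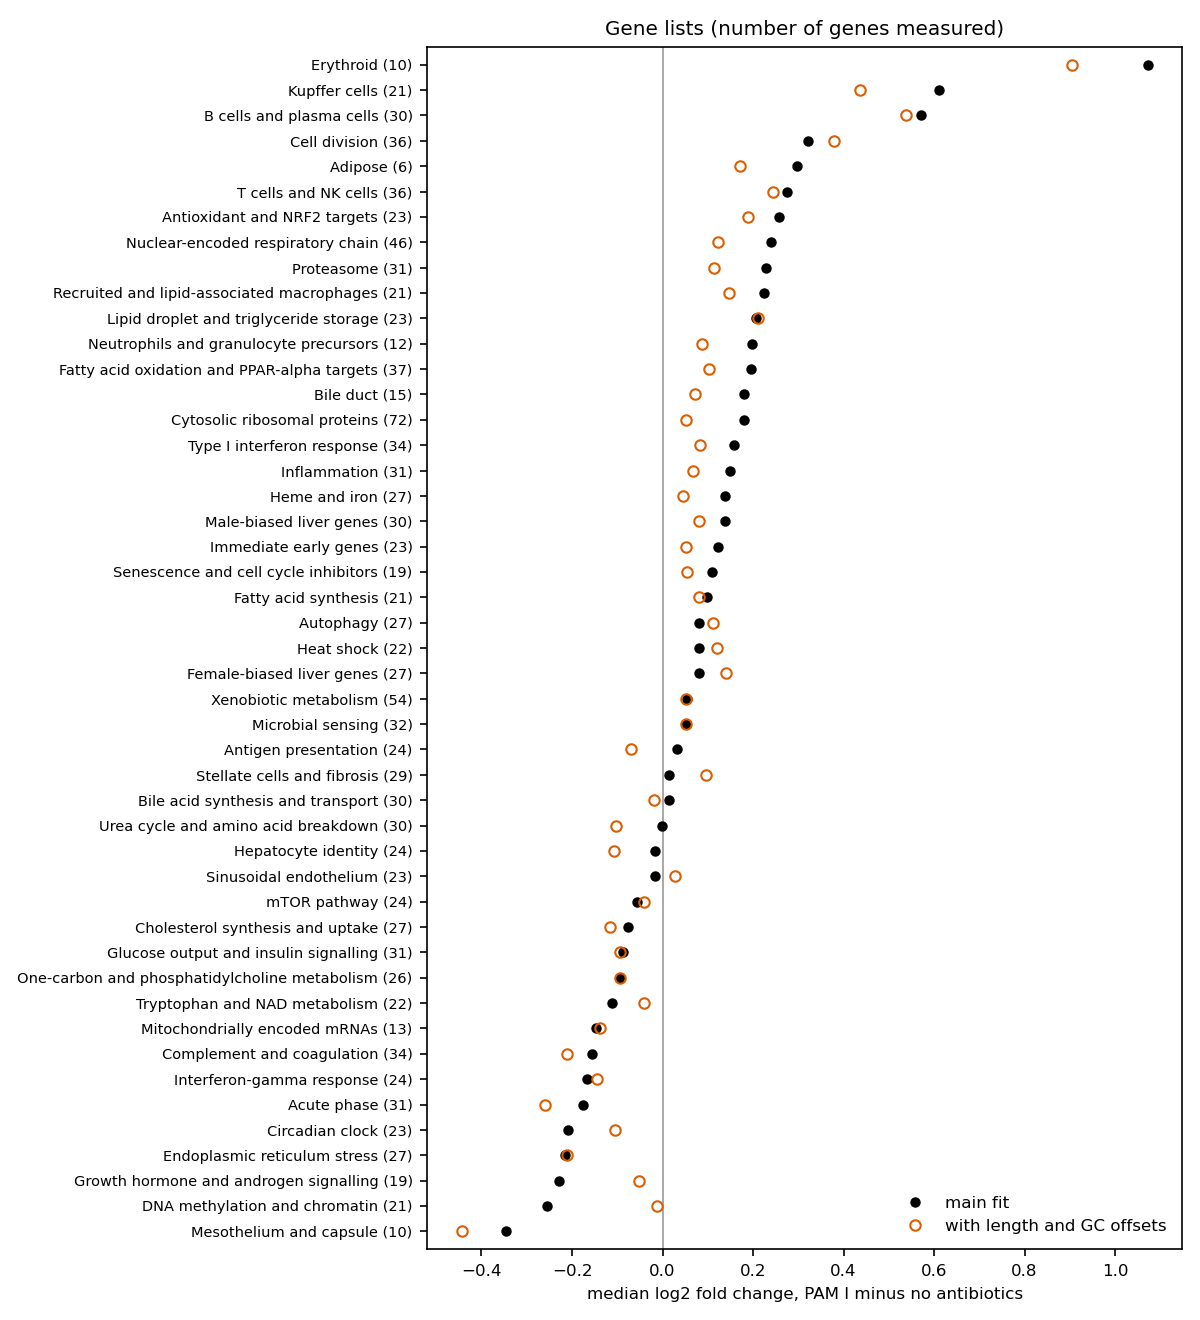
Median log2 fold change of PAM I minus no antibiotics (horizontal axis) over the measured genes of 47 lists, with the number of genes in parentheses. The skeletal muscle list (median 2.26) and that of the exocrine pancreas (2 genes measured) are not drawn. Black points are the main fit and open orange circles the length-corrected fit. The lists of DNA methylation and chromatin, growth hormone signalling, respiratory chain and proteasome lay nearer to 0 with the correction, while B cells and plasma cells (0.57 and 0.54) and lipid droplets (0.21 and 0.21) did not differ much between fits.

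Among lists of liver cell identity, those of hepatocytes, sinusoidal endothelium and stellate cells had medians near 0. The bile duct list had a median of 0.18 over 15, and the Kupffer cell list, described above, one of 0.61. Hepatocyte identity genes had a median of -0.02 over 24, sinusoidal endothelium one of -0.02 over 23, and stellate cells and fibrosis one of 0.01 over 29. Female-biased liver genes had a median of 0.08 over 27 and none at an unadjusted p under 0.05, and male-biased genes a median of 0.14 over 30 with none higher and 1 lower. These values changed with the livers included. Without the libraries high in muscle transcripts the female-biased median was -0.67 and the male-biased median was 0.87. Without PAM I replicate 3, 5 female-biased genes were higher and none lower at an unadjusted p under 0.05, and the male-biased median was -0.42. In that fit 6.31% of all genes passed this level in either direction. Cyp2a4, a female-biased gene, had 55.6, 53.0, 6.64 and 10.9 CPM in PAM I and 3.65, 22.6, 12.6 and 12.3 CPM in controls, and Cyp2b9 had 295, 194, 30.8 and 52 CPM in PAM I and 108, 156, 84.3 and 120 CPM in controls. The highest values of both genes were those of PAM I replicates 1 and 2, and the highest control was replicate 2. These livers are the ones that stood above the rest in muscle transcripts. Hsd3b5, a gene of male liver, had 0.231, 0.0642, 5.08 and 0.302 CPM in PAM I and 0.343, 1.21, 1.05 and 0.200 CPM in controls.

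The complement and coagulation list (34 measured, median -0.16) had 4 genes lower and none higher at an unadjusted p under 0.05, against 5.69% of all genes lower, and 1 lower with length correction (median -0.21). Hc, complement component C5, was at -0.55 (SE 0.23). The count was 0 without PAM I replicate 4 and 12 without control replicate 4. In these fits 3.55% and 17.5% of all genes passed in either direction. Chka, the kinase that starts the making of phosphatidylcholine from choline, had 129, 127, 91.4 and 88.9 CPM in PAM I and 154, 143, 243 and 166 CPM in controls, with no overlap (log2 fold change -0.69, SE 0.24).

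PAM II livers were tested directly against those of PAM I. Of the 17046 genes, none passed an adjusted p under 0.05 in PAM II against PAM I (0%; smallest adjusted p 0.88), and 778 were at an unadjusted p under 0.05 (4.56%). Alas1 had 149, 168, 166 and 136 CPM in the PAM II livers, below every PAM I liver, with a log2 fold change of PAM II over PAM I of -0.72 (SE 0.23). Tet3 had 19.1, 23.9, 20.8 and 25.7 CPM in PAM II, above every PAM I liver (0.53, SE 0.16), and Ighm had 212, 149, 104 and 120 CPM (-0.85, SE 0.40). For Alas1 and Tet3 the PAM II values thus did not overlap those of PAM I, and for Ighm they did. Alas1 and Tet3 were named because these same PAM I livers lay apart from the controls. Their separation from PAM II is therefore not independent of that choice. The share of all genes without overlap between PAM II and PAM I was not computed. Npas2 had 7.63, 9.16, 11.4 and 7.6 CPM in PAM II, within or below the PAM I range, and Rictor 10.3, 19.0, 14.1 and 11.5 CPM, with log2 fold changes over PAM I of -0.19 (SE 0.26) and 0.00 (SE 0.19). Chka had 98.6, 81.3, 105 and 61.5 CPM in PAM II (-0.34, SE 0.24). With no adjusted p under the threshold, none of these genes was shown to differ, or to be alike, between the antibiotic groups.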

How the data were processed

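Each deposited table gives, for 1 library, the authors' raw fragment counts for 55471 genes, unnormalized. Per the submitters' processing notes the authors used Trimmomatic 0.38, HISAT2 2.1.0, the mm10 genome and featureCounts 1.5.0-p2. Per the file headers, counting was by gene over Ensembl 99 exons (GRCm38), by read pair and with featureCounts' strand option set to 1. GENCODE M21 supplied symbols for 55144 identifiers.

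The main test was edgeR 4.0.16 (R 4.3.3) on those counts, with TMM scaling, filterByExpr, 1 mean for each of the 4 groups, robust quasi-likelihood F tests (two-sided) and Benjamini-Hochberg adjustment over 17046 genes. CPM values are TMM-scaled. The biological coefficient of variation was 27.3%, and no pair of the 8 libraries was a copy (root mean square difference of log2 CPM 0.272 or more). Fragment totals limit the precision of genes with few counts, whereas the spread between mice limits the others. Length and GC offsets came from a loess fit (span 0.5) of each library's deviations.

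The 49 gene lists were written from general knowledge. The comparison and the lists were chosen with earlier results of these data known, and lists are described by counts and medians without a test. Named genes are the 12 per direction with the smallest unadjusted p among genes averaging 1 or more in log2 CPM whose groups did not overlap (predicted models, pseudogenes and immunoglobulin segments aside), up to 3 per list, and 22 set by name. Other named genes were chosen after their values were seen. Alternatives comprised scaling (RLE, upper quartile), the low-count filter (none, or 1 CPM in 4 libraries), non-robust dispersions, DESeq2 1.42.0, limma 3.58.1 voom with quality weights, fits of 8 or 12 libraries, covariates (muscle, Kupffer cell or clock genes) and omission of libraries. The test was tried on simulated data.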

Additional observations from a re-analysis of the deposited data

Results flagged for a closer look

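Of 302 groups of 4 libraries, 22 had a library far from the other 3 by Dixon's ratio at its 95% critical value, which chance flags in about 1 of 20 groups.

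PAM I replicate 4 was such a library for 8 genes. It had 10.2 CPM of Tet3 (others 16.8 to 18.1), 51.7 CPM of Kmt2d (others 79.4 to 81.8), 13.1 CPM of Arntl (others 19.8 to 20.2) and 123 CPM of Sel1l, an adaptor of protein degradation in the endoplasmic reticulum (others 140 to 142). It had higher levels of Hspe1 (111.5 CPM, others 85.3 to 88.2), Atp5d (462 CPM, others 379 to 392), Cidea (163 CPM, others 56.6 to 70.8) and of Ighg2c (19.6 CPM, others 0.364 to 3.44). This PAM I library also had the steepest decline in level with gene length, with a difference of -0.77 between the longest and the shortest class of genes, and the part of that decline in these values was not tested.

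Control replicate 4 stood below the other controls for Yod1 (9.02 CPM, others 10.8 to 10.9), Esr1 (14.3 CPM, others 33.4 to 36.0) and Stat5b (57.5 CPM, others 85.4 to 88.6). It stood above them for Ccl5 (31 CPM, others 1.53 to 4.98) and for interferon-gamma response genes, whose mean log2 CPM was 1.03 above that of the 4 controls (others -0.43 to -0.19). Control replicate 1 stood above the other controls for Marco (37.7 CPM, others 0.646 to 4.71), Saa1 (533 CPM, others 52.8 to 129) and Lcn2 (200 CPM, others 21 to 50).

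Irs2 was highest in PAM I replicate 1 (23.6 CPM, others 16.0 to 17.0). Bet1l was highest in PAM I replicate 3 (16.5 CPM, others 15.1 to 15.3), as were Hsd3b5 (5.08 CPM, others 0.0642 to 0.302) and adipose genes, with a mean log2 CPM 0.78 above that of the controls (others 0.11 to 0.21). The mitochondrially encoded mt-Co3 was highest in PAM I replicate 1 (212 CPM, others 21.5 to 33.8) and mt-Nd4l in control replicate 2 (37.5 CPM, others 3.55 to 6.77).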

How the results depend on the processing

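The count of 0 genes called in PAM I against controls by edgeR (1602 at an unadjusted p under 0.05) held under every alternative except DESeq2 (14 genes) and the fit without the libraries high in muscle transcripts (3 genes). In PAM II against PAM I the count of 0 became 12 in that last fit, in which the 1 remaining PAM II library is assumed to vary like the other groups, and stayed at 0 elsewhere. Leaving out each library in turn gave 0 calls by edgeR in both comparisons. No paired analysis was possible because the labels number the libraries in 1 run through all groups, and the replicate numbers used here only name them.

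Of the named genes, 10 were called by DESeq2, and the following log2 fold changes changed sign. With the muscle covariate Lcn2 was at 0.032, Cyp2b9 at -0.824, Cyp7a1 at -0.229 and Pck1 at -0.126. Without the libraries high in muscle transcripts Igha was at -0.001, Cyp2b9 at -1.352, Cyp2a4 at -0.139, Cyp7a1 at -0.278, Fgf21 at -0.198 and Cd36 at -0.292. With the Kupffer cell covariate Igha was at -0.099, Cyp3a11 at 0.083, Tlr4 at -0.052, Ccl5 at -0.477 and Gzma at -0.137. With the clock covariate Igha was at -0.224, Cyp3a11 at 0.153, Pck1 at -0.301, Dbp at -0.135 and Ccl5 at -0.044. With length and GC offsets Cyp3a11 was at 0.12, Pck1 at -0.011 and Ccl5 at -0.097. Limma voom put Hsd3b5 at -1.601 and Cyp7a1 at -0.24, and upper-quartile scaling put Cyp3a11 at 0.01. Cd36, at 0.003 in the test as reported, was at -0.009 with RLE scaling, -0.008 with the stricter filter, -0.01 with DESeq2, -0.014 in the fit of 8 libraries and -0.011 in that of 12. Leaving out each library in turn gave Igha -0.323 to 0.496, Marco -2.63 to 0.28, Saa1 -1.284 to 0.298, Lcn2 -1.15 to 0.367, Cyp2b9 -0.365 to 0.609, Hsd3b5 -1.814 to 1.412, Cyp7a1 -0.536 to 0.269, Cyp3a11 -0.147 to 0.062, Pck1 -0.068 to 0.215, Cd36 -0.179 to 0.196, Tlr4 -0.05 to 0.408, Ccl5 -0.329 to 1.775, Gzma -0.117 to 0.898 and mt-Co3 -0.239 to 1.621. The cause of these changes was not tested. Every other named gene kept its direction in each alternative that gave it a value. Of the recomputed list medians, 1043 moved by less than the spread between libraries and 35 by more. The median of all genes was 0.051 with upper-quartile scaling, 0.006 with RLE and 0.016 with TMM. With 4 livers a group and these differences between mice, small changes could be missed.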

Other observations

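Cell division genes, which mark proliferating cells, were higher for 30 of 36 measured, with a median log2 fold change of 0.32 (0.38 with length correction). In each fit 2 were higher at an unadjusted p under 0.05. Of all genes 3.71% were higher in the main fit and 2.71% with length correction. The mitotic kinase Aurka was at 0.73 (SE 0.30), with 1.22, 2.87, 1.6 and 1.25 CPM in PAM I and 0.968, 1.24, 1.25 and 0.735 CPM in controls, and Tyms, which makes thymidylate, was at 0.26 (SE 0.12). Levels were near 1 CPM for Aurka, and without PAM I replicate 2 the median of the list was 0.07 with none at an unadjusted p under 0.05. Of 19 genes of senescence and cell cycle inhibition, the inhibitor Cdkn1b was at -0.26 (SE 0.09), with no overlap between groups, and the stress hormone Gdf15 at 0.98 (SE 0.42). Gdf15 had 59.4, 67.3, 38.2 and 81.9 CPM in PAM I and 12.3, 39.9, 25.9 and 47.1 CPM in controls. Genes of endoplasmic reticulum stress were lower for 22 of 27, with a median of -0.21. Against 5.69% of all genes lower, 1 was lower at an unadjusted p under 0.05, Sel1l at -0.58 (SE 0.25). With length correction none was. Without control replicate 4 there were 8 lower, and 17.5% of all genes passed in either direction.

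Bcl6, a repressor of female-biased genes in male liver, had 35.4, 58.5, 98.5 and 50.9 CPM in PAM II, against 27.2, 29.6, 13 and 8.89 CPM in PAM I, with no overlap between the antibiotic groups (log2 fold change 1.63, SE 0.41, adjusted p = 0.88 by edgeR). Controls had 48.6, 39.4, 43.9 and 22.4 CPM, which gave PAM I a log2 fold change of -0.97 (SE 0.41). Bcl6 was named by its p in PAM I against controls, so its separation from PAM II is not independent of that choice.

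Among 13 mitochondrially encoded mRNAs, values lay in opposite directions for genes close together on the mitochondrial genome. In PAM I against controls mt-Atp8 was at -1.55 (SE 0.58), mt-Nd4l at -1.64 (SE 0.81) and mt-Co3 at 1.21 (SE 0.69). Some mitochondrial genes overlap a neighbour on the same strand, so their counts are uncertain. mt-Co3 was high in PAM I replicate 1 alone, and its log2 fold change was -0.24 without that liver. mt-Nd4l was high in control replicate 2, and its log2 fold change was -0.33 without it.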
